A study of Homo sapiens with 14 samples.

Results

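The miR-34 family was examined through its 6 mature miRNA rows, hsa-miR-34a-5p, hsa-miR-34a-3p, hsa-miR-34b-5p, hsa-miR-34b-3p, hsa-miR-34c-5p and hsa-miR-34c-3p (named without the species prefix from here on), which were chosen by name from the 2588 mature miRNA rows of each count table. All 14 libraries were small RNA libraries from A549 cells, a human lung adenocarcinoma line, grown untreated in serum-supplemented DMEM. In Borohydride Reduction sequencing (BoRed-seq), decapped total RNA was reduced with NaBH4 together with free m7GTP, so that N7-methylguanosine (m7G) became an abasic site that a biotin-coupled aldehyde reactive probe could bind for streptavidin capture (Red, n = 2), and in its control the NaBH4 was quenched with acid before use (Ctrl, n = 2). By the protocol, Ctrl RNA also went through the probe coupling that precedes capture. In m7G-RIP-seq, decapped RNA was immunoprecipitated with an anti-m7G antibody (IP, n = 5) and compared with the RNA taken before immunoprecipitation (Input, n = 5). Only 1 cell line was used, and nothing in the labels says that the replicates were separate cultures, so the p-values measure the spread between these samples, which may be technical.

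The miR-34 miRNAs are known as repressors of proliferation. MIR34A has a host transcript of its own, MIR34B and MIR34C are made from a shared host transcript, and the mature 5p strands repress cell cycle and survival genes such as CDK6, MET and BCL2. A mature miRNA recognises its targets mainly through its seed, bases 2 to 8 from the 5′ end. Neither assay measures the level of a miRNA in the cell; each compares what was captured with a control library, so that a low value means under-representation in the capture relative to the other miRNAs. In such bulk RNA, fewer cells holding a miRNA and less of it per cell cannot be told apart.

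The mature sequences are shown because both assays target a modified guanosine and because the family is defined by its seed, which is in capitals (5′ to 3′, RefSeq on GRCh38.p14). miR-34c-5p is named only, and the statements on sequence cover the strands printed. The printed 5p strands of the family and of its miR-449 relatives were
miR-34a-5p: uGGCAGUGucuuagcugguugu
miR-34b-5p: uAGGCAGUgucauuagcugauug
miR-449a: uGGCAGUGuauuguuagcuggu
miR-449b-5p: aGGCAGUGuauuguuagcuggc
miR-449c-5p: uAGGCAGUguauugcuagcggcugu
and the 3p strands were
miR-34a-3p: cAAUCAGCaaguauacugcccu
miR-34b-3p: cAAUCACUaacuccacugccau
miR-34c-3p: aAUCACUAaccacacggccagg

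Among the printed strands, miR-34a-5p, miR-449a and miR-449b-5p carried the same seed. The seed of miR-34b-5p is offset by 1 base and was shared with miR-449c-5p and with miR-2682-5p, which is not printed. The seeds of the 3 3p strands differed from each other. miR-34a-5p held 8 guanosines in 22 bases (36.4%), miR-34b-5p 7 in 23 bases, miR-34c-3p 4, miR-34a-3p 3 and miR-34b-3p 1 (4.55%). The closest pair among the 5 members printed, miR-34a-5p and miR-34b-5p, differed by an edit distance of 4, and miR-34b-3p and miR-34c-3p differed by 6 although they share a run of 10 bases.

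The MIR34A hairpin lies on chromosome 1 (GRCh38, 9151668 to 9151777, minus strand), wholly inside an exon of the long non-coding RNA MIR34AHG, with miR-34a-5p at chr1:9151735-9151756. The MIR34B and MIR34C hairpins lie on the plus strand of chromosome 11, at 111512938 to 111513021 and 111513439 to 111513515, with 417 bases between them. Both are within the long non-coding RNA MIR34BHG. MIR34C is wholly exonic there, whereas 4 of the 84 bases of MIR34B reach into the exon and the rest is intronic. BTG4, a protein-coding gene, spans both hairpins on the opposite strand.

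The libraries held 4678102 and 5874405 counts in Ctrl, 242085 and 277498 in Red, 7097379 to 14874685 in Input and 2854811 to 6452759 in IP. The limit that a count of 0 allows (3 counts) was therefore 10.8 to 12.4 counts per 1000000 (CPM) in Red and at most 1.05 CPM in every other library, covering counting error only. miR-21-5p, which is abundant in A549 cells, took 79.0 to 80.4% of Ctrl, 26.7 to 26.9% of Red, 38.0 to 46.3% of Input and 4.64 to 6.27% of IP counts. Of the 3 other epithelial and A549 markers, miR-31-5p was at 793 to 1386 CPM in Input and 461 to 535 CPM in Ctrl, and miR-200c-3p at 55.4 to 88.2 CPM and 12.4 to 16.2 CPM. miR-141-3p was close to 0, with at most 0.342 CPM in Input and 2.38 CPM in Ctrl. In Red, miR-200c-3p was higher (log2 2.89, DESeq2 adjusted p = 1.65e-10), whereas miR-21-5p (-2.67) and miR-31-5p (-1.42) were lower. The 6 blood markers summed to at most 2.69 CPM in Input and 1.71 CPM in Ctrl but to 28.9 to 72.1 CPM in Red. Of these, miR-150-5p averaged 29.6 CPM in Red and miR-451a 0, and none had enough counts to be tested in BoRed-seq. The 5 stromal and endothelial markers summed to 307 to 325 CPM in Ctrl and 471 to 786 CPM in Red. Their tested members went both ways. miR-199a-3p averaged 234 CPM in Red against 0.895 CPM in Ctrl (log2 6.87), and miR-143-3p 250 against 31.8 CPM (log2 1.83). miR-126-3p, most of the Ctrl sum, averaged 142 CPM in Red against 283 CPM in Ctrl (log2 -2.14, DESeq2 adjusted p = 1.70e-07). The part of these markers in the results was not tested. Among the m7G-RIP-seq libraries, the second principal component (15.3% of variance, after 57.1% on the first) set replicates 4 and 5 apart from replicates 1 to 3 in both groups; no label names a batch, and the main m7G-RIP-seq results are also given within these sets.

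In the control libraries the family was carried by the miR-34c and miR-34a 5p strands. Summed over the 6 rows it made up 251.8 and 334 CPM in Ctrl and 148 to 273 CPM in Input. Levels were compared in CPM without a length correction; the printed members are 22 or 23 bases long. miR-34c-5p was the highest row, at 166 ± 19.5 CPM (SD, n = 2) in Ctrl and 111 ± 29.6 CPM (SD, n = 5) in Input. miR-34a-5p followed at 116 ± 37.1 CPM in Ctrl and 80.5 ± 25.2 CPM in Input, below miR-34c-5p in 5 of 5 Input libraries although the ranges of the groups overlapped. The other rows were far lower. miR-34b-3p averaged 5.83 ± 4.28 CPM and miR-34c-3p 4.61 ± 3.67 CPM in Input, with overlapping ranges, and miR-34b-3p was the higher in each of the 5 libraries. miR-34a-3p averaged 0.746 ± 0.615 CPM in Input. miR-34b-5p had 2 and 3 counts in Ctrl and 0 in Red and in all 10 m7G-RIP-seq libraries.

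**Figure D1:**
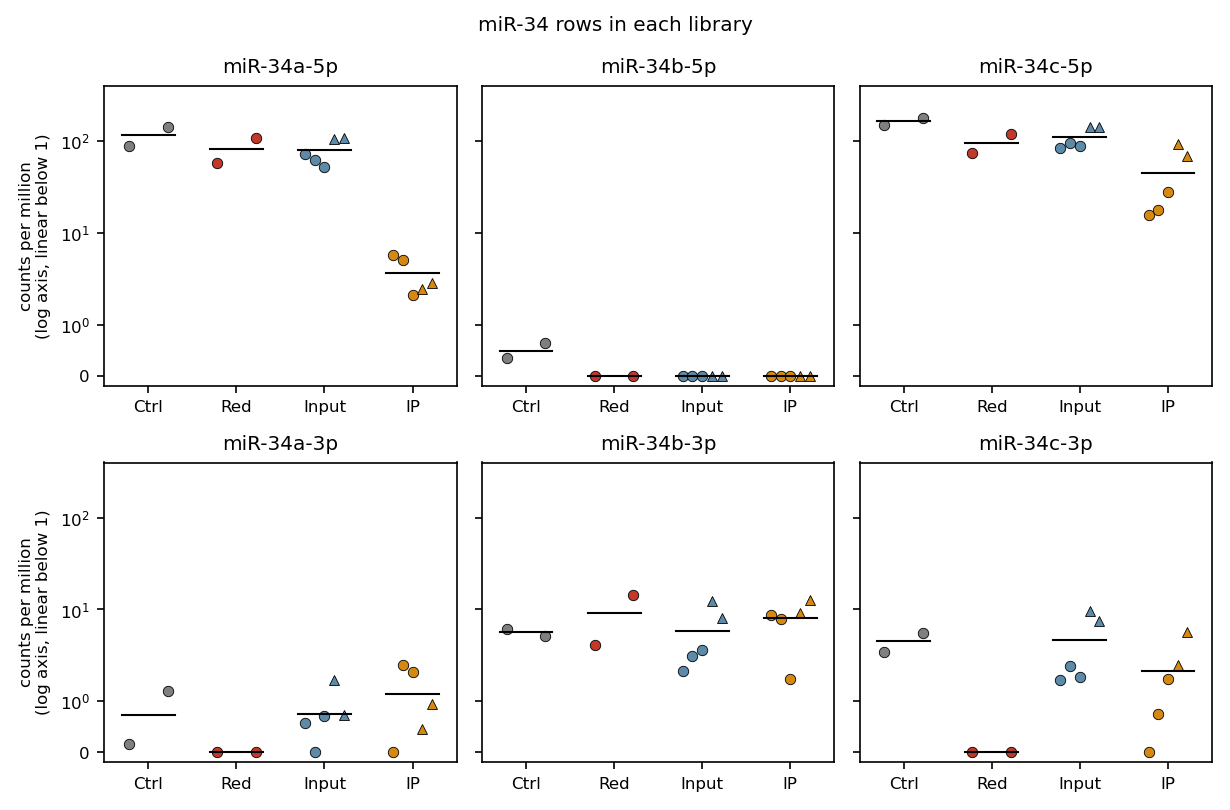
Level in CPM (log axis, linear below 1) of the 6 miR-34 rows in each library, by group, with replicates in order from left to right, circles for the BoRed-seq libraries and m7G-RIP-seq replicates 1 to 3, triangles for m7G-RIP-seq replicates 4 and 5, and bars for group means. miR-34a-5p sits between 52.7 and 109 CPM in Input and between 2.10 and 5.75 CPM in IP, while miR-34c-5p in IP ranges from 15.8 to 93.8 CPM.

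miR-34a-5p was the family member most depleted from the anti-m7G immunoprecipitate. Its counts in Input replicates 1 to 5 were 520, 876, 659, 1230 and 1616 (73.3, 62.7, 52.7, 105 and 109 CPM). In the IP they were 28, 27, 6, 16 and 15 (5.75, 5.10, 2.10, 2.48 and 2.83 CPM). Every IP library was below every Input library by a wide margin, a separation in CPM seen in 19.1% of miRNAs, and the IP values rest on few reads. The log2 enrichment of IP over Input was -4.76 ± 0.33 (SE; DESeq2 Wald test, adjusted p = 2.64e-45), a 27.1-fold lower level, and the 15th lowest of the 670 miRNAs tested. Of those 670, 29.9% were called lower in IP, which is the background for the 2 of 4 tested family members that were. The log2 enrichment of miR-34a-5p was -4.25 within replicates 1 to 3, where 30.7% of miRNAs were called lower, and -5.62 within replicates 4 and 5, where 31.5% were.

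miR-34c-5p, processed from the other locus, was also lower in the immunoprecipitate, but by less. Input replicates 1 to 5 held 598, 1341, 1110, 1689 and 2116 counts of it (84.3, 96.0, 88.7, 144 and 142 CPM). IP replicates 1 to 5 held 77, 94, 79, 605 and 370 counts (15.8, 17.8, 27.7, 93.8 and 69.9 CPM). In CPM, IP replicate 4 exceeded Input replicates 1 and 3, whereas after median-of-ratios normalisation the highest IP library (613 normalised counts) was below the lowest Input library (676), a non-overlap seen in 24.2% of the 670 miRNAs. Its log2 enrichment was -1.61 ± 0.48 (SE; DESeq2, adjusted p = 0.00198), 3.05-fold lower, and ranked 150th from the lowest. Within replicates 1 to 3 it was -2.63 and within replicates 4 and 5 it was -1.09.

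The minor strands had few counts, and those tested gave no call over all libraries without a replicate term. miR-34b-3p had 15, 43, 45, 144 and 120 counts in Input and 42, 42, 5, 59 and 68 in IP. The groups overlapped, with IP replicate 3 the lowest of its group, and the log2 enrichment was 0.21 ± 0.57 (SE; DESeq2, adjusted p = 0.775; 95% interval -0.91 to 1.32). Leaving out Input replicate 1 turned this value to -0.07, and replicates 4 and 5 alone gave -0.16. miR-34c-3p had 12, 34, 23, 112 and 112 counts in Input and 0, 4, 5, 16 and 30 in IP. The groups overlapped in CPM, and in replicate 3 Input and IP were nearly equal (1.84 and 1.75 CPM). Its log2 enrichment was -1.37 ± 0.84 (SE; DESeq2, adjusted p = 0.152). Pairing of these libraries by replicate number was assumed, not established. With the replicate as a block, where 35.4% of miRNAs were called lower, miR-34c-3p passed the threshold (-1.76, DESeq2 adjusted p = 0.0136). It also passed without IP replicate 5 (-2.14, DESeq2 adjusted p = 0.0225) and with a term for replicates 4 and 5 (-1.56, DESeq2 adjusted p = 0.00702). miR-34a-3p had 4, 0, 9, 20 and 11 counts in Input and 0, 13, 6, 3 and 5 in IP, and with too few counts it was not tested.

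Ratios between members within a library do not depend on normalisation. In Input the log2 ratio of miR-34a-5p over miR-34c-5p was -0.20, -0.61, -0.75, -0.46 and -0.39 in replicates 1 to 5, and in IP it was -1.44, -1.78, -3.61, -5.20 and -4.58. The groups did not overlap, and the means (-0.48 ± 0.21 and -3.32 ± 1.66, SD, n = 5) differed by -2.84 (two-sided exact permutation test over libraries, p = 0.00794, the smallest that 5 against 5 allows, and 0.0132 adjusted over 5 ratios). As a share of all miR-34 counts, miR-34a-5p went from 35.7 to 45.3% in Input to 2.29 to 19.0% in IP, while miR-34c-5p made up 52.0 to 60.1% and 52.2 to 86.6%. Against miR-34b-3p, miR-34a-5p fell by 5.01 on the log2 scale (exact permutation, adjusted p = 0.0132), without overlap. miR-34c-5p fell by 2.17 against miR-34b-3p (exact permutation, adjusted p = 0.0198), with overlapping groups. How often ratios between other miRNAs separate without overlap was not counted, so these ratios have no background share beside them.

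The strands of the same hairpin differed for miR-34a and not detectably for miR-34c. miR-34a-5p fell by 5.24 on the log2 scale against its own 3p strand (exact permutation, adjusted p = 0.0132), a value that rests on 0 to 20 counts of miR-34a-3p per library. In IP replicate 3 both strands had 6 counts. The ratio of miR-34c-5p over miR-34c-3p was 4.91 ± 0.79 in Input and 4.86 ± 1.48 in IP (log2, SD, n = 5), a difference of -0.05 (exact permutation, adjusted p = 0.944). When the replicate numbers were used as pairs, the 4 ratios that passed above had the same differences with an adjusted p of 0.0781, the lowest that 5 pairs allow here. The difference in the ratio of miR-34a-5p over miR-34c-5p was -1.76 within replicates 1 to 3 and -4.47 within replicates 4 and 5, and that of miR-34c-5p over miR-34b-3p was -2.98 and -0.95, in sets too small to reach the threshold.

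**Figure D2:**
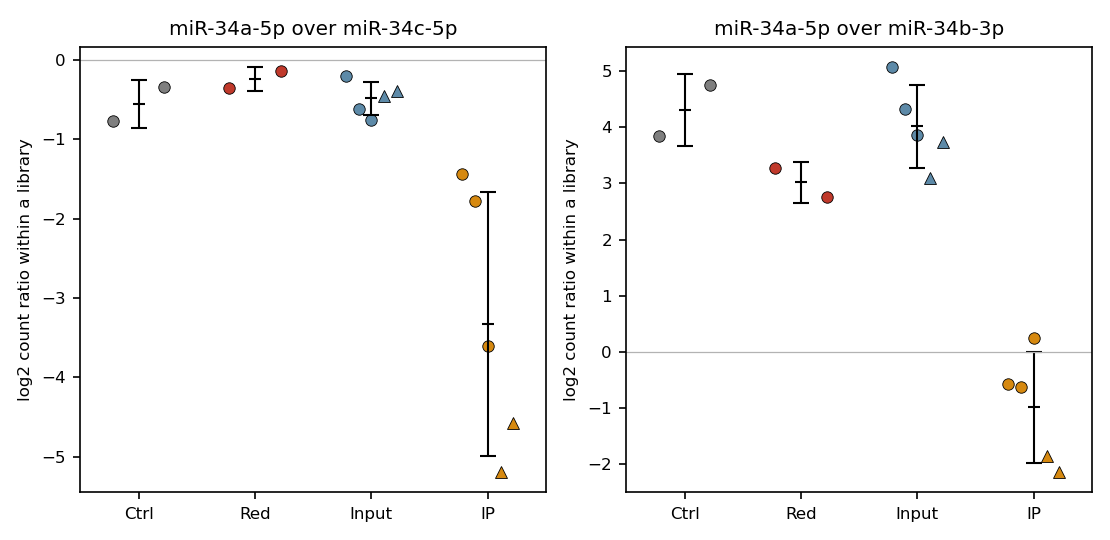
Log2 ratio of miR-34a-5p counts over miR-34c-5p counts (left) and over miR-34b-3p counts (right) within each library, after adding 0.5 to each count, by group; circles and triangles are single libraries (triangles for m7G-RIP-seq replicates 4 and 5), and bars give the mean and SD. The IP libraries lie below all Input libraries for both ratios, whereas Red and Ctrl overlap for the ratio to miR-34c-5p.

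The replicate sets differed for the 2 abundant members, and in opposite directions. IP replicates 4 and 5 held 93.8 and 69.9 CPM of miR-34c-5p, against 15.8 to 27.7 CPM in IP replicates 1 to 3. For miR-34a-5p these were 2.48 and 2.83 CPM, against 2.10 to 5.75 CPM, although the Input level of replicates 4 and 5 was the higher for both miRNAs. The log2 enrichment of miR-34c-5p was 1.60 ± 0.32 higher in replicates 4 and 5 (interaction term of a DESeq2 fit, adjusted p = 1.07e-05), and that of miR-34a-5p was -1.33 ± 0.48 (adjusted p = 0.0249). Of 488 miRNAs with an adjusted p, 26.8% differed between the replicate sets. The difference of miR-34c-5p stayed past the threshold without any 1 library, and that of miR-34a-5p lost the call in 8 of 10 such fits, all but those without Input replicate 1 or IP replicate 3, and with the replicate block (-1.23, DESeq2 adjusted p = 0.0894). miR-34b-3p (-0.72, adjusted p = 0.638) and miR-34c-3p (0.60, adjusted p = 0.787) gave no call. The sets were chosen after seeing these same libraries, so the interaction p-values are descriptive only. What sets these replicates apart was not tested.

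In BoRed-seq, miR-34a-5p and miR-34c-5p were under-represented to a similar degree. miR-34a-5p had 526 and 664 counts in Ctrl and 14 and 30 in Red (89.5 and 142 CPM against 57.8 and 108 CPM). The groups overlapped in CPM, while the normalised counts (146 and 247 in Ctrl, 51.8 and 73.4 in Red) did not. The log2 enrichment of Red over Ctrl was -1.63 ± 0.48 (SE; DESeq2, adjusted p = 0.00177), rank 144 from the lowest of 453. miR-34c-5p had 894 and 841 counts in Ctrl and 18 and 33 in Red (152 and 180 CPM against 74.4 and 119 CPM). Its Red libraries were below its Ctrl libraries on either scale (27.8% of miRNAs in CPM), with a log2 enrichment of -1.91 ± 0.41 (SE; DESeq2, adjusted p = 1.16e-05). Of the 400 miRNAs with an adjusted p, 27.2% were called lower in Red, beside 2 of the 3 family members tested, and normalised counts without overlap on the lower side were found for 46.6% of 453.

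The size of these BoRed-seq values depended on the scaling. With library totals as size factors, which moved the median miRNA by 1.12 on the log2 scale for the BoRed-seq table and 0.33 for the m7G-RIP-seq table, miR-34a-5p was at -0.47 (DESeq2 adjusted p = 0.470) and miR-34c-5p at -0.77 (adjusted p = 0.160), and neither was called, beside 11.8% of miRNAs called lower. The calls over all miRNAs then moved from 129 higher and 109 lower (54.2% higher) to 175 higher and 46 lower (79.2%) for BoRed-seq, and from 183 and 200 (47.8% higher) to 232 and 164 (58.6%) for m7G-RIP-seq. In m7G-RIP-seq miR-34a-5p (-4.45) and miR-34c-5p (-1.30, DESeq2 adjusted p = 0.0132) stayed called, beside 24.5% of all miRNAs. Thinning Ctrl to the depth of Red gave -1.28 for miR-34a-5p (adjusted p = 0.0824). Without Red replicate 1 miR-34a-5p was at -1.03 (DESeq2 adjusted p = 0.151), and without Ctrl replicate 1 it was at -2.75.

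**Figure D3:**
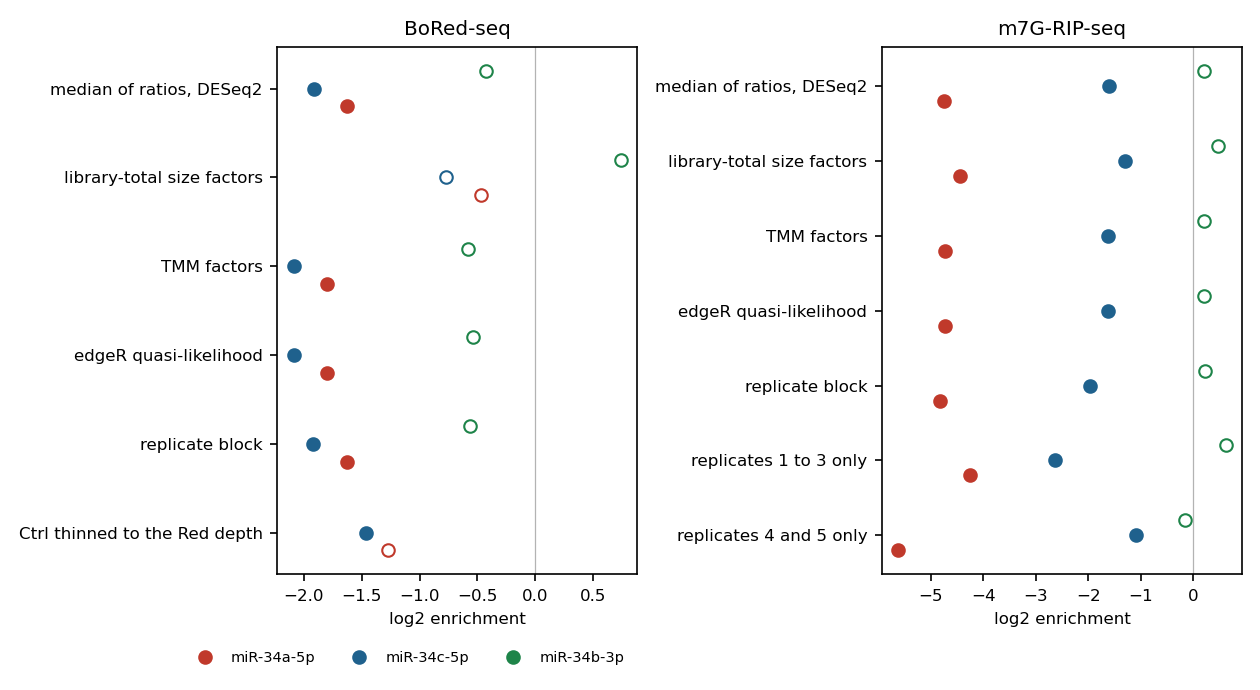
Log2 enrichment of miR-34a-5p (red), miR-34c-5p (blue) and miR-34b-3p (green), for BoRed-seq (left) and m7G-RIP-seq (right), under each normalisation, test or set of libraries named on the vertical axis; filled points have an adjusted p below 0.05 and open points do not or have none. With library totals the BoRed-seq values of miR-34a-5p and miR-34c-5p move to -0.47 and -0.77 and are open, while their m7G-RIP-seq points are filled in every setting drawn.

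The remaining rows were near or under the depth of the Red libraries. miR-34b-3p had 36 and 24 counts in Ctrl and 1 and 4 in Red, with a log2 enrichment of -0.43 ± 1.27 (SE; DESeq2, adjusted p = 0.790; 95% interval -2.92 to 2.06), and the direction turned with library totals (0.74) and without Red replicate 1 (0.42). miR-34c-3p had 20 and 26 counts in Ctrl, or 3.40 and 5.56 CPM, and 0 in both Red libraries. Since 0 counts in Red allow up to 10.8 to 12.4 CPM, a difference was not detectable at this depth in CPM. DESeq2 withheld an adjusted p for miR-34c-3p, and edgeR's quasi-likelihood test gave 0.0140. miR-34a-3p, with 1 and 6 counts in Ctrl, and miR-34b-5p also had 0 counts in Red, and neither had enough counts to be tested. Within BoRed-seq libraries the log2 ratio of miR-34a-5p over miR-34c-5p was -0.76 and -0.34 in Ctrl and -0.35 and -0.14 in Red, overlapping and differing by 0.31 (exact permutation, p = 0.667). None of the 6 ratios could pass, because 2 libraries against 2 cannot give a p below 0.333.

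The assays differed for miR-34a-5p. Its log2 enrichment was 3.13 ± 0.59 (SE) higher in BoRed-seq than in m7G-RIP-seq (95% interval 1.98 to 4.28; z test on the DESeq2 estimates, adjusted p = 1.01e-06), and leaving out any 1 library kept this difference between 2.01 (without Ctrl replicate 1) and 3.72. Across the 384 miRNAs tested in both assays, 38.0% differed by this test. The references of the assays were unlike, since Ctrl RNA also went through probe coupling whereas Input RNA was taken before immunoprecipitation. For miR-34c-5p the difference was -0.30 ± 0.63 (95% interval -1.55 to 0.94; DESeq2 z test, adjusted p = 0.744), and for miR-34b-3p it was -0.63 ± 1.39 (95% interval -3.36 to 2.10; adjusted p = 0.751), so that differences of over 1 log2 unit were not excluded for either. miR-34a-5p and miR-34c-5p were among the 87 of 384 miRNAs (22.7%) called lower in both assays.

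**Figure D4:**
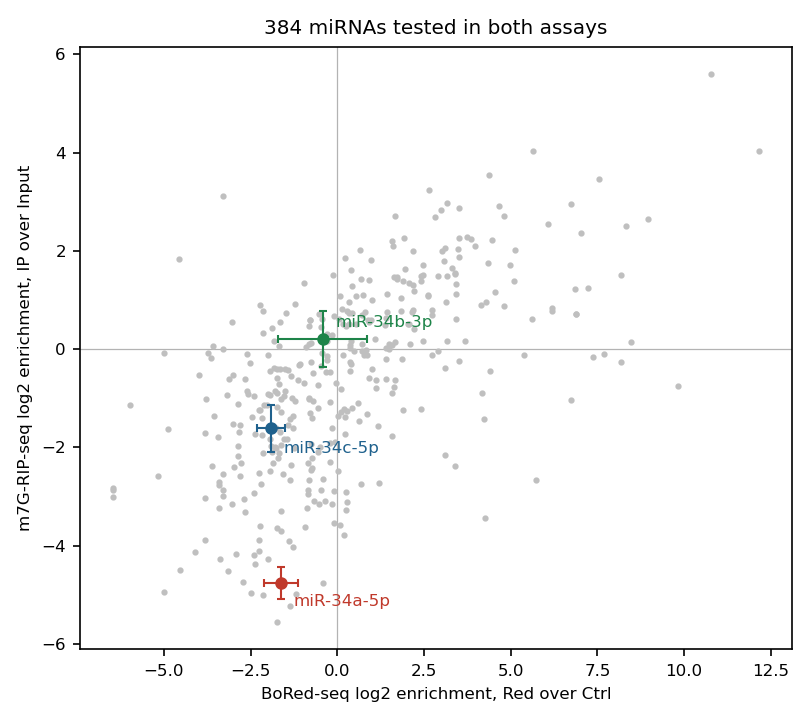
Log2 enrichment in BoRed-seq (Red over Ctrl, horizontal axis) against m7G-RIP-seq (IP over Input, vertical axis) for the 384 miRNAs tested by each (grey points), with 3 miR-34 members in colour and bars of 1 standard error. miR-34a-5p (-1.63, -4.76) lies near the lower edge of the cloud, miR-34c-5p (-1.91, -1.61) within the lower left part and miR-34b-3p (-0.43, 0.21) near the origin.

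Base composition was set beside these values as a description. Over tested miRNAs with a RefSeq sequence, the share of guanosine and the log2 enrichment had a Pearson r of 0.408 with BoRed-seq (n = 355) and 0.432 with m7G-RIP-seq (n = 602); the miRNAs share libraries and are not independent. miRNAs with 30 to under 40% guanosine, as in the 5p strand of miR-34a printed above, had a median log2 enrichment of 0.19 for BoRed-seq and of 0.01 for m7G-RIP-seq (quartiles -1.24 and 0.97), against -4.76 for miR-34a-5p. miRNAs under 20% guanosine had an m7G-RIP-seq median of -0.62, against 0.21 for miR-34b-3p, the strand with 1 guanosine, and -1.37 for miR-34c-3p, with 4. In m7G-RIP-seq, of the 3 tested members with a printed sequence, the one with the most guanosines had the lowest value and the one with the fewest the highest. Only miR-34a-5p of these was called, and the 95% intervals of miR-34b-3p (-0.91 to 1.32) and miR-34c-3p (-3.02 to 0.28) overlapped. BoRed-seq gave another order, with -3.78 ± 2.22 (SE) for miR-34c-3p below -1.63 for miR-34a-5p, though miR-34c-3p had 0 counts in Red.

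Over the 14 libraries, centred within each assay, the profile of miR-34a-5p was most like that of miR-361-5p (Pearson r = 0.979), miR-9-5p (0.970) and miR-181a-5p (0.968), of 299 miRNAs compared. In m7G-RIP-seq the log2 enrichment of these was -4.26, -1.93 and -3.62. miR-34c-5p was most like miR-27a-3p (0.961), miR-23a-3p (0.958) and miR-27b-3p (0.954), with log2 enrichments of -1.39, -1.41 and -1.75. miR-34c-5p came 83rd in the order for miR-34a-5p (r = 0.728). These correlations are descriptions over libraries that share 2 strong contrasts.

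The miR-449 relatives were scarce in the control libraries. Of them, miR-449a and miR-449b-5p carry the seed of miR-34a-5p, and miR-449c-5p carries that of miR-34b-5p. The 5 miR-449 rows summed to 3.75 to 5.13 CPM in Ctrl and 3.15 to 11.1 CPM in Input. miR-449a averaged 0.569 CPM and miR-449b-5p 0.111 CPM in Input, and neither was tested, nor were miR-449b-3p and miR-449c-3p. miR-449c-5p, the only one tested, averaged 4.68 CPM in Input and 4.20 CPM in IP, with a log2 enrichment of -0.53 ± 0.78 (SE; DESeq2, adjusted p = 0.572).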

How the data were processed

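A549 small RNA was profiled in 14 libraries by BoRed-seq (2 Red, 2 Ctrl) and m7G-RIP-seq (5 IP, 5 Input), grouped by the sample labels. The deposited tables hold raw counts per mature miRNA that the authors made by trimming with Trimmomatic, mapping to GRCh38 and counting with featureCounts over miRBase; the study's methods name STAR and the submitters' processing notes name Bowtie2. Counts were neither normalised nor pooled. The labels describe no molecular identifiers, and the limits given for absent counts cover counting error only. The 95% intervals come from the standard errors of the DESeq2 estimates, which include the spread between libraries. The low Red totals limit the precision of BoRed-seq.

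Rows reaching 10 counts in 2 or more BoRed-seq or 5 or more m7G-RIP-seq libraries were tested in each table with DESeq2 1.42.0 (R 4.3.3; Wald test, median-of-ratios factors, Benjamini-Hochberg adjustment over the table, threshold 0.05). An adjusted p that DESeq2 withheld for a low mean count was left missing. Differences between assays were tested by z tests on the DESeq2 estimates, adjusted over 384 miRNAs. Ratios between members, with 0.5 added to each count, were compared by two-sided exact permutation tests (scipy 1.17.1). CPM is relative to the total of mature miRNA counts. The scripts were tested on simulated data.

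The family members, gene lists and tests were chosen with earlier results of these data known. All 6 members are named, together with the miR-449 relatives and, for miR-34a-5p and miR-34c-5p, the 3 most correlated miRNAs among those past the filter in both assays with a mean of at least 100 normalised m7G-RIP-seq counts. Other listed miRNAs are not reported here. The marker lists of muscle, neuron and liver (307.6 to 495 CPM in Input, 613 to 697 CPM in Ctrl and 748 to 1088 CPM in Red, mostly miR-9-5p) and of stroma and endothelium (323 to 538 CPM in Input) were read as well. Replicate numbers stand in the sample titles. In m7G-RIP-seq, deviations from the group means correlated within every number (r = 0.146 to 0.387 over 5 pairs), and pairing by number was assumed. Unlike numbers gave r = -0.286 to 0.373, and 3 of 5 IP libraries correlated best with their own number. Unlike numbers within replicates 4 and 5 gave r = 0.359 and 0.373, so r does not separate pairing by number from the replicate sets. Alternatives were edgeR 4.0.16, other scalings and filters, thinning of Ctrl, leaving out each library, and the replicate block. The comparison of replicates 4 and 5 with replicates 1 to 3 was added after seeing the data.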

Additional observations from a re-analysis of the deposited data

Results flagged for a closer look

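The log2 enrichment of miR-34a-5p differed between the assays by 3.13 (BoRed-seq minus m7G-RIP-seq), by the test of the difference itself. The m7G-RIP-seq replicate sets were compared as replicates 4 and 5 minus replicates 1 to 3. The difference was -1.33 for miR-34a-5p and 1.60 for miR-34c-5p. Each passed the threshold of the interaction term in DESeq2, in sets chosen after seeing the data. The call of miR-34a-5p was lost with the replicate block and in 8 of 10 fits that left out 1 library. No library stood out from its group in the 10 comparisons of a member's Input or IP values.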

How the results depend on the processing

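Of the 382 recomputed values, 323 kept their direction and side of the threshold, or for counts stayed within 1.5 times. In BoRed-seq, library totals gave -0.47 for miR-34a-5p, -0.77 for miR-34c-5p and 0.74 for miR-34b-3p, and 46 miRNAs called lower. Thinning Ctrl to the depth of Red gave -1.28 for miR-34a-5p (DESeq2 adjusted p = 0.0824) and 57 lower calls. edgeR gave 167 lower calls and -6.75 for miR-34c-3p (adjusted p = 0.0140), a value that depends on its prior count since Red held 0 counts. Requiring 10 counts in every library left 71 higher and 71 lower calls in BoRed-seq and 116 lower in m7G-RIP-seq. A pseudocount of 1 turned the BoRed-seq ratio of miR-34c-5p over miR-34c-3p to -0.52.

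Leaving out 1 library at a time gave, in BoRed-seq, -2.75 to -1.03 for miR-34a-5p, -2.86 to -1.42 for miR-34c-5p, -1.20 to 0.42 for miR-34b-3p, -0.0087 to 0.85 for the ratio of the miR-34c strands, 81 to 97 higher calls (fewest without Ctrl replicate 1) and 67 to 82 lower calls (fewest without Red replicate 1). In m7G-RIP-seq it gave -4.94 to -4.59 for miR-34a-5p, -2.03 to -1.36 for miR-34c-5p, -0.065 to 0.59 for miR-34b-3p, -2.14 to -0.98 for miR-34c-3p and -0.65 to 0.27 for the ratio of the miR-34c strands. Between the assays it gave -1.25 to 0.19 for miR-34c-5p and -1.02 to 0.22 for miR-34b-3p. Between the replicate sets it gave -1.60 to -1.09 for miR-34a-5p, 1.41 to 1.82 for miR-34c-5p and -0.10 to 1.52 for miR-34c-3p.

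The difference between the assays for miR-34c-5p was 0.53 with library totals, 0.044 with the replicate block and 0.71 with m7G-RIP-seq replicates 1 to 3 alone, and that for miR-34b-3p was 0.27 with library totals. Replicates 4 and 5 alone gave -0.16 for miR-34b-3p and 0.33 for the ratio of the miR-34c strands. A term for the replicate set gave -1.56 for miR-34c-3p. The cause was not tested.

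With the replicate block, m7G-RIP-seq gave -1.76 for miR-34c-3p and -1.23 for the replicate-set difference of miR-34a-5p. Paired ratio differences were -2.84 (miR-34a-5p over miR-34c-5p), -5.01 (miR-34a-5p over miR-34b-3p), -2.17 (miR-34c-5p over miR-34b-3p) and -5.24 (the miR-34a strands), at 0.0781 adjusted. In replicates 1 to 3 alone they were -1.76, -4.74, -2.98 and -5.63, and in replicates 4 and 5 alone -4.47, -5.42, -0.95 and -4.66, in designs that cannot pass. In BoRed-seq the 2 numbers are only shared (r = 0.110), and the block gave -1.63 for miR-34a-5p and -1.92 for miR-34c-5p, both still called. The block changed no other call on a member's enrichment.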
